A study of Mus musculus with 6 samples.

Results

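The receptors for interleukin 3 and for granulocyte-macrophage colony-stimulating factor (GM-CSF) are built from 3 chains, and the transcripts of these chains are described here in human leukemic cells grown in mice. The genes are IL3RA, the interleukin 3 receptor alpha chain (surface antigen CD123), CSF2RA, the GM-CSF receptor alpha chain, and CSF2RB, the beta chain common to both receptors. They were picked by symbol, and all 3 were found among the 13892 genes of the deposited table.

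An alpha chain binds its own cytokine with low affinity, and the beta chain binds no cytokine alone but joins the complex and carries the kinase JAK2. Assembly lets JAK2 phosphorylate the beta chain, which starts signalling through STAT5, phosphoinositide 3-kinase and RAS. In marrow these receptors serve myeloid progenitors, and CD123 is well known as a surface marker of leukemic stem cells in acute myeloid leukemia (AML), of plasmacytoid dendritic cells and of basophils. The alpha chain of the interleukin 5 receptor, IL5RA, uses the same beta chain in eosinophils. Mouse interleukin 3 and mouse GM-CSF do not act on the human receptors.

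The tumours were AML produced in NSG mice, an immunodeficient strain, by human hematopoietic stem cells carrying NPM1c, the cytoplasmic mutant of nucleophosmin. Each of the 3 mice came from its own transduction, and marrow was taken when the animals were moribund. The leukemic stem cell (LSC) libraries were sorted on GFP, CD33 and CD123, and the bulk libraries on GFP and CD33. Every library was thus gated on GFP, and the bulk gate named no CD123 status. Transcripts of NPM1c itself were not examined here. There were 3 LSC and 3 bulk libraries, and a shared number marks both libraries of a mouse. Each mouse is 1 leukemia. The sources used here give neither animal age nor the promoter driving NPM1c, and no normal human cells were measured.

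The table held between 10669560 and 14933494 reads per library, and bulk replicate 1 was the shallowest outside the MTRNR2L rows, copies of mitochondrial ribosomal RNA that took 70.0% of its reads. Values are log2 CPM, that is, reads scaled to the authors' normalized library size, and a CPM below is the same value with the log undone. Transcripts were measured, not surface protein, and in sorted pools fewer expressing cells and less RNA per expressing cell cannot be told apart. Labels were checked against markers. CD33 had 6.80, 8.05 and 1.17 CPM in LSC replicates 1, 2 and 3 and 4.45, 8.21 and 13.1 CPM in the bulk replicates, so the gated antigen had few transcripts, and it was lowest in LSC replicate 3 with 16 reads. Of 7 tested stem and progenitor markers, none was higher in LSC in limma or voom, nor at an unadjusted p under 0.05. With the mouse as a block 3 of the 7, KIT, CD34 and PROM1, were lower (limma adjusted p = 0.00806, 0.0361 and 0.0139), against 7.71% of all genes. Without the block none of these passed (limma adjusted p = 0.0691, 0.096 and 0.0526). At an unadjusted limma p under 0.05 the same 3 were lower, against 10.1% of all genes. Over 21 alternatives KIT, CD34 and PROM1 passed in 7, 2 and 8. PROM1 had 24 LSC reads, with 0 in LSC replicate 3, where CD34 had 10. FLT3, also listed, had a log2 change of 0.47 and did not pass either way. The LSC label is therefore used below only as the name of the gate.

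All 3 chains had more transcript in every LSC library than in any bulk library. Mean levels ± SD (n = 3 each) of IL3RA were 108 ± 51.7 CPM for LSC and 2.01 ± 0.424 CPM for bulk. Those of CSF2RB were 131 ± 45.9 CPM for LSC and 27.9 ± 8.78 CPM for bulk, and those of CSF2RA were 127 ± 20.4 CPM for LSC and 57.5 ± 18.6 CPM for bulk. Such a complete separation with LSC above was shared by 13.2% of the 13755 genes tested, and with LSC below by 11.9%. At an adjusted p of 0.05 limma called 2.71% of genes higher and 1.33% lower in LSC, and 8.25% higher and 7.71% lower when the mouse entered the fit as a block. Without the block, an unadjusted limma p under 0.05 was reached by 10.2% of genes with LSC higher and 10.1% with LSC lower, and voom, a weighted fit to the recovered reads, called 2.31% higher and 1.15% lower at an adjusted p of 0.05. The beta chain passed the test without the block and the GM-CSF alpha chain only with it.

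**Figure D1:**
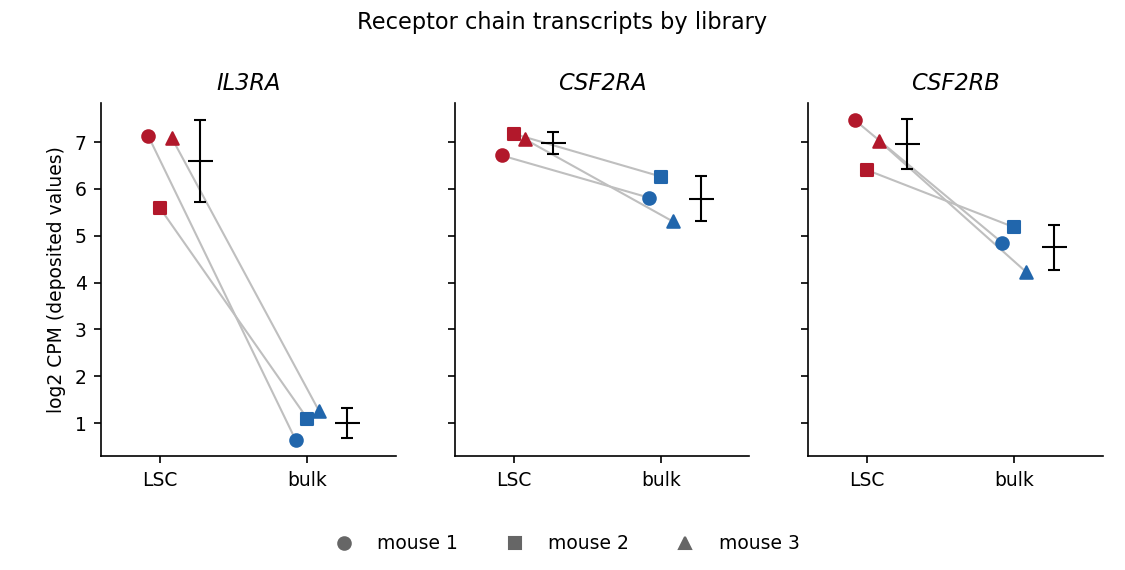
Deposited log2 CPM (vertical axis) of the 3 receptor chains in each library, LSC left of bulk. Symbols mark the mouse, grey lines join libraries of 1 mouse, and the black bars give mean ± SD over 3 libraries. The IL3RA values lie far apart between LSC and bulk, those of CSF2RA lie closest, and LSC replicate 2 is lowest for IL3RA and CSF2RB but highest for CSF2RA.

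IL3RA encodes the antigen on which the LSC gate was set, so its difference is a description of the sort and is given without a test. It had 140 CPM in LSC replicate 1, 48.0 in LSC replicate 2 and 135 in LSC replicate 3, against 1.54, 2.12 and 2.37 CPM in bulk replicates 1, 2 and 3. LSC replicate 2 was the low one of its group, and no bulk library came near it. The bulk values rest on 9, 25 and 37 reads, and the exact 95% counting interval of the lowest, 0.705 to 2.93 CPM, spans the other 2, so the order of the bulk libraries was not resolved at this depth. The LSC values rest on 757 to 1888 reads. The log2 change was 5.60 (SE 0.48), which placed IL3RA 57th among the 13755 genes by size of increase. Within mice 1, 2 and 3 it was 6.48, 4.49 and 5.83. Put as a share, bulk IL3RA was 1.10%, 4.41% and 1.75% of the LSC level of the same mouse.

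CSF2RB, the signalling chain, was not named by either gate. It had 176 CPM in LSC replicate 1, 84.6 in LSC replicate 2 and 131 in LSC replicate 3, against 28.8, 36.2 and 18.7 CPM in bulk replicates 1, 2 and 3. As for IL3RA, LSC replicate 2 was the lowest LSC library, and here its bulk partner was the highest bulk library. The fold of LSC over bulk was therefore 6.13 and 6.98 in mice 1 and 3 but 2.33 in mouse 2. CSF2RB rose in LSC with a log2 change of 2.21 (SE 0.37, limma adjusted p = 0.0142), higher in 3 of 3 mice, and ranked 428th among the genes tested. Blocking on the mouse gave an adjusted p of 0.00322. The call was lost without LSC replicate 1 (adjusted p = 0.0544), without LSC replicate 3 (0.0513), without both libraries of mouse 1 (0.18) or of mouse 3 (0.0621), with log2 changes of 1.92 to 2.71 over all libraries or mice left out. Over all 21 alternatives the adjusted p ran from 0.00178 to 0.18.

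CSF2RA, the GM-CSF binding chain, showed the smallest separation. It had 105 CPM in LSC replicate 1, 145 in LSC replicate 2 and 133 in LSC replicate 3, against 56.2, 76.8 and 39.6 CPM in bulk replicates 1, 2 and 3. Both libraries of mouse 2 were the highest of their group, which neither IL3RA nor CSF2RB showed. The log2 change was 1.19 (SE 0.32) and did not pass without the block (limma adjusted p = 0.0776), while blocking on the mouse gave an adjusted p of 0.0133 (SE 0.24). LSC over bulk was 1.87-fold and 1.88-fold in mice 1 and 2 and 3.36-fold in mouse 3. Without the block CSF2RA passed under no other setting, at adjusted p of up to 0.303. CSF2RA ranked 1294th by size of increase.

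For each chain taken alone, an exact permutation test over the 6 libraries gave p = 0.1 (two-sided) for CSF2RB and for CSF2RA, the smallest value that 3 libraries against 3 allow. The authors' deposited table codes the difference as bulk minus LSC. In that table CSF2RB had -2.22 (false discovery rate 0.165), CSF2RA -1.19 (0.359), and IL3RA had -5.61. The lowest rate of any gene in the authors' deposited table was 0.0813, and its values come from the same libraries.

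The balance of the chains was examined next, because each receptor needs both an alpha and a beta chain. Gene length cancels when the log2 ratio of 2 genes is compared between libraries, so differences of the ratio can be read, whereas the ratio itself is not a ratio of molecules. Relative to IL3RA, both other chains were much lower in LSC than in bulk. The LSC gate was set on CD123, so the direction and separation of these ratios are a description of the sort. The log2 ratio of CSF2RB over IL3RA was 0.34, 0.82 and -0.05 in LSC replicates 1, 2 and 3 and 4.21, 4.09 and 2.97 in the bulk replicates, a difference of -3.39. The bulk libraries of mice 1 and 2 lay together, and mouse 3 had the lowest ratio in each population. The log2 ratio of CSF2RA over IL3RA differed by -4.41, and by -5.58, -3.58 and -4.08 in mice 1, 2 and 3. No library of one population entered the range of the other in either ratio.

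The ratio of the beta chain to the GM-CSF alpha chain involves no gated gene. In bulk it was -0.96, -1.08 and -1.08 in replicates 1, 2 and 3 (log2 ratio, SD 0.067). In LSC it was 0.75, -0.77 and -0.02 in replicates 1, 2 and 3 (SD 0.76). All 3 LSC libraries lay above all 3 bulk libraries. In LSC replicate 2 the gap to bulk was small. LSC exceeded bulk by 1.03 on the log2 scale, by 1.71, 0.31 and 1.05 in mice 1, 2 and 3. The exact permutation test gave p = 0.1 for the difference, the smallest it can give, so it could not pass. The difference in spread between the populations was not tested.

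**Figure D2:**
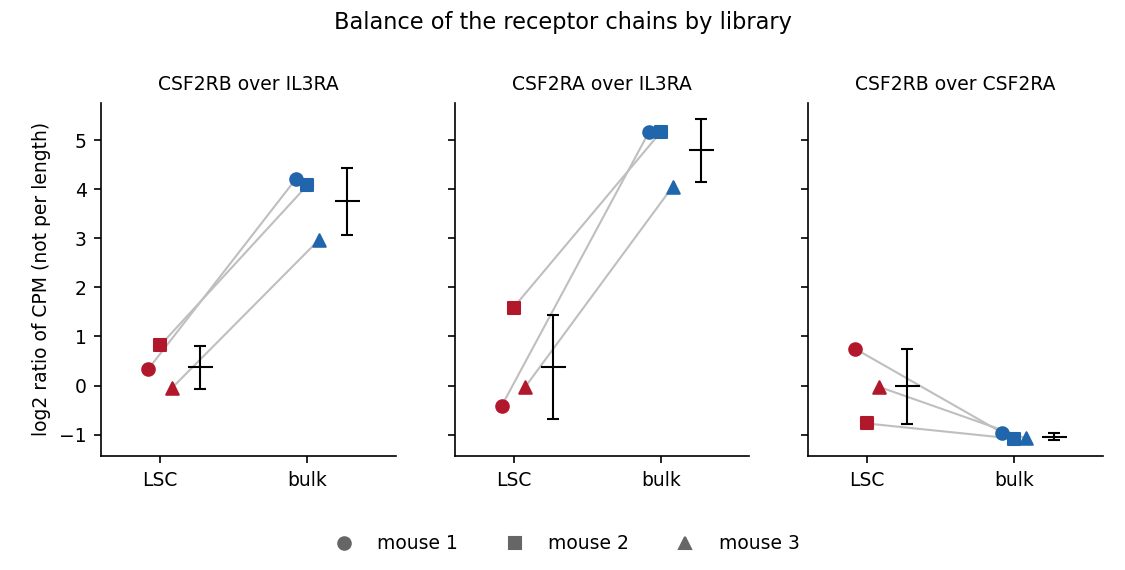
Log2 ratio of CPM between 2 chains (vertical axis, not scaled by gene length) in each library, LSC left of bulk, with mice joined by lines and mean ± SD in black. Ratios over IL3RA are lower in LSC. CSF2RB over CSF2RA lies at -1.08 to -0.96 in bulk and at -0.77 to 0.75 in LSC, without counting error shown.

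The remaining parts of the system were few at the ligand level. The ligand genes IL3, CSF2 and IL5 have no row in the table used here, and nothing is said of their expression. IL5RA, the interleukin 5 binding chain, had 6.43, 4.56 and 3.57 CPM in LSC replicates 1, 2 and 3, against 15.1, 17.9 and 3.52 CPM in the bulk replicates. The bulk libraries of mice 1 and 2 stood above the rest, and bulk replicate 3 lay at the LSC level. Its log2 change of -1.06 (SE 0.64) did not pass (limma adjusted p = 0.384, 0.143 with the block). The summed CPM of 8 eosinophil markers was likewise lowest among bulk libraries in replicate 3, at 72.1 to 312 in LSC and at 568, 1529 and 166 in bulk replicates 1, 2 and 3, and its part in the IL5RA values was not tested.

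Of 23 kinases, adaptors and STATs that act next to the receptor, 1 rose in LSC and none fell without the block, and 3 rose and 3 fell with it. Over all genes limma called 2.71% higher and 1.33% lower without the block, and 8.25% and 7.71% with it. At an unadjusted limma p under 0.05, 3 of the 23 were higher and 3 lower, against 10.2% and 10.1% of all genes. Voom called the same number of the 23 as limma without the block. The median log2 change was 0.01, against -0.00364 over all genes tested. PIK3CD, the catalytic subunit p110 delta of phosphoinositide 3-kinase, had 149, 169 and 125 CPM in LSC and 44.9, 66.4 and 43.0 CPM in bulk replicates 1, 2 and 3. The groups did not overlap, and PIK3CD rose by 1.54 on the log2 scale (SE 0.29, limma adjusted p = 0.0224, 0.00221 with the block). The call was lost in 8 alternatives, among them leaving out LSC replicate 1, 2 or 3 (adjusted p = 0.0701, 0.0574 and 0.0554), bulk replicate 1 (0.0954) or mouse 1, 2 or 3 (0.24, 0.0863 and 0.0661), with log2 changes of 1.42 to 1.74.

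JAK2, the kinase bound to the beta chain, had 218, 103 and 149 CPM in LSC and 118, 53.5 and 69.9 CPM in bulk replicates 1, 2 and 3. The groups overlapped, yet the ratio was similar in every mouse, with log2 changes of 0.89, 0.94 and 1.09. JAK2 passed with the mouse as a block (limma adjusted p = 0.0129) and not without it (0.199). LYN, a SRC family kinase associated with the beta chain, did not pass without the block and passed with it (log2 change 1.24, limma adjusted p = 0.148 and 0.0336), and in mouse 3 its change was 0.18. Without the block LYN passed when bulk replicate 3 (1.76, adjusted p = 0.0159) or mouse 3 (1.77, 0.0382) was left out. PIK3R1, the regulatory subunit p85 alpha, PIK3CA, the catalytic subunit p110 alpha, and IRS2, an adaptor, passed with the block in the other direction, with log2 changes of -0.95, -1.23 and -2.84 and adjusted p of 0.0168, 0.0322 and 0.0403. The size of the IRS2 change depends on LSC replicate 3, which had 2 reads. The change was -1.28 without that library, and -1.26 and -1.75 within mice 1 and 2. STAT5A and STAT5B, the transcription factors most tied to this receptor, had changes of 0.26 and 0.02 (adjusted p = 0.803 and 0.977).

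Among 15 tested genes listed as negative regulators 1 rose and none fell without the block, and 3 rose with it, with a median log2 change of 0.34. The shares of all genes called were 2.71% higher and 1.33% lower without the block, and 8.25% and 7.71% with it. At an unadjusted limma p under 0.05, 5 of the listed genes were higher and 3 lower, against 10.2% and 10.1% of all genes. The 3 lower genes were SPRED1, SOCS2 and PTPN11. Voom called 1 regulator higher and 0 lower, against 2.31% and 1.15% of all genes. SH2B3, the adaptor LNK that restrains JAK2, had 143, 103 and 118 CPM in LSC and 29.4, 38.4 and 44.9 CPM in bulk replicates 1, 2 and 3. Every LSC library was above every bulk library, and SH2B3 rose by 1.70 (SE 0.29, limma adjusted p = 0.0158, 0.00334 with the block). The call was lost in 6 alternatives, among them leaving out LSC replicate 1 or 3 (adjusted p = 0.0585 and 0.0545), bulk replicate 1 (0.0701) or mouse 1 or 2 (0.209 and 0.089), with log2 changes of 1.41 to 1.85.

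CISH and SOCS3 are feedback inhibitors transcribed after STAT activation. CISH had 85.1, 50.0 and 10.5 CPM in LSC and 13.2, 12.5 and 1.54 CPM in bulk replicates 1, 2 and 3. Both libraries of mouse 3 were the lowest of their group, and LSC replicate 3 lay below bulk replicates 1 and 2, so the groups overlapped. Within each mouse LSC was higher, with log2 changes of 2.69, 1.99 and 2.76. SOCS3 had 25.8, 19.0 and 1.68 CPM in LSC and 2.40, 3.64 and 0.576 CPM in bulk, again with mouse 3 lowest in both populations. With the mouse as a block CISH and SOCS3 rose (limma adjusted p = 0.00155 and 0.0152), and without it neither passed in the 6 libraries (0.186 and 0.238), while leaving out mouse 3 gave 0.0276 and 0.0308. SOCS2 had a log2 change of -1.24 and did not pass either way (adjusted p = 0.187, 0.0991 with the block). The phosphatase genes PTPN6 and INPP5D and the ubiquitin ligase gene CBL had log2 changes of 0.08, 0.02 and 0.05 (adjusted p of 0.937 or more).

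Of 16 tested target genes of the pathway 2 fell and none rose, with or without the block, and the median log2 change was 0.26. Over all genes 1.33% were called lower without the block and 7.71% with it. At an unadjusted limma p under 0.05, 1 target gene was higher and 3 were lower, against 10.2% and 10.1% of all genes. Voom called 0 target genes higher and 2 lower, against 2.31% and 1.15% of all genes. MYC, a growth regulator, had 18.0, 11.5 and 4.23 CPM in LSC and 88.2, 45.0 and 67.9 CPM in bulk replicates 1, 2 and 3 (log2 change -2.75, SE 0.53, limma adjusted p = 0.0235). CDK6, a kinase of the G1 phase, had 133, 123 and 186 CPM in LSC and 492, 444 and 658 CPM in bulk, and fell by nearly the same step in each mouse, with log2 changes of -1.89, -1.85 and -1.83 (adjusted p = 0.00944). For both genes the groups stood apart. The MYC call was lost without bulk replicate 1 or 3 (adjusted p = 0.0925 and 0.0528) and without mouse 1, 2 or 3 (0.127, 0.105 and 0.0574), with log2 changes of -3.20 to -2.13. That of CDK6 was lost without mouse 1 or 2 (0.164 and 0.0695). The serine kinase genes PIM1 and PIM2 had changes of -0.42 and 1.36 (adjusted p = 0.829 and 0.165), and the survival genes MCL1, BCL2 and BCL2L1 changes of 0.57, -0.10 and -2.62 (adjusted p = 0.326, 0.897 and 0.229).

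**Figure D3:**
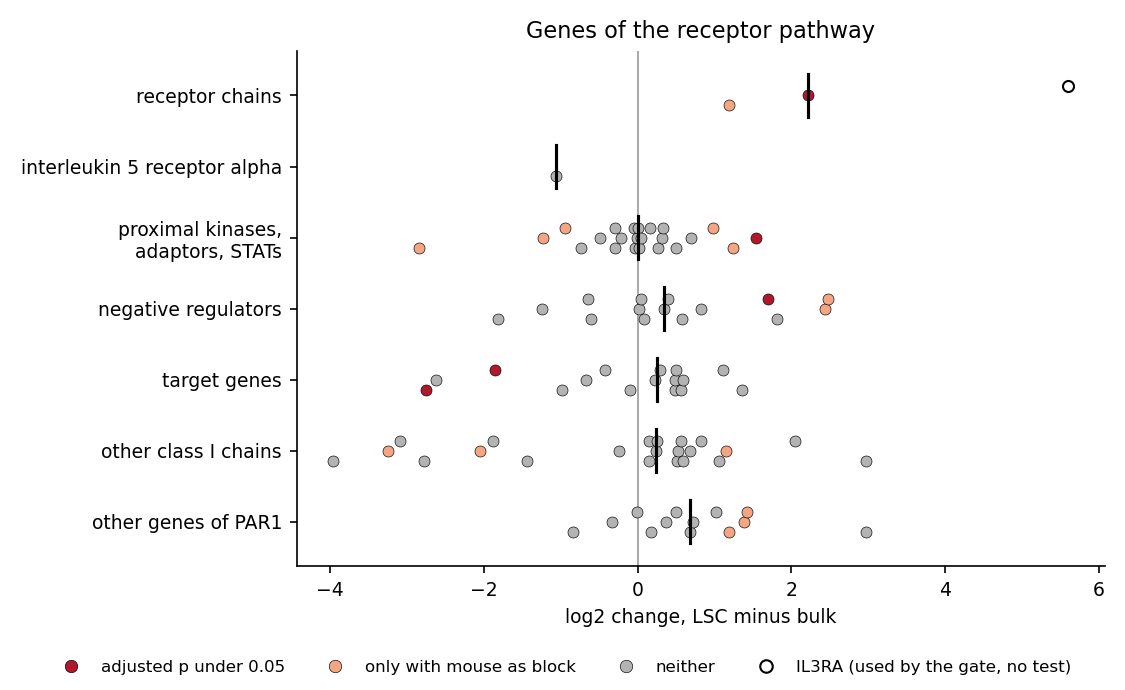
Log2 change, LSC minus bulk (horizontal axis), of every tested gene of each pathway list, with the list median as a black bar. Dark red genes passed at an adjusted p of 0.05, light orange genes only with the mouse as a block, and the open circle is IL3RA. Medians outside the receptor chains and IL5RA lie between 0.01 and 0.68.

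Other receptors of the same structural class were set beside the 3 chains. Among 22 tested class I cytokine receptor chains none passed in either direction without the block. At an unadjusted limma p under 0.05 there were 3 higher and 5 lower, against 10.2% and 10.1% of all genes. Voom called 0 of these chains, against 2.31% of all genes higher and 1.15% lower. With the block 1 rose, IL12RB1 (log2 change 1.15, limma adjusted p = 0.0216), and 2 fell, CSF3R and IL15RA. Of all genes tested, 8.25% rose and 7.71% fell with the block. CSF3R, the receptor of granulocyte colony-stimulating factor, had 23.9, 28.8 and 3.94 CPM in LSC and 79.4, 129 and 18.9 CPM in bulk replicates 1, 2 and 3. It was lower in LSC in every mouse although mouse 3 was low in both populations (log2 change -2.05, adjusted p = 0.0016 with the block, 0.221 without it and 0.0421 without mouse 3). IL15RA, the interleukin 15 alpha chain, rests on 14 LSC reads and 95 bulk reads. IL6ST, the shared chain gp130 of the interleukin 6 family, and IL2RG, the common gamma chain, had changes of 0.52 and 0.68 and did not pass (adjusted p = 0.472 and 0.397). The median over the 22 was 0.24.

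IL3RA and CSF2RA are neighbours in pseudoautosomal region 1 at the tips of the X and Y chromosomes, while CSF2RB is on chromosome 22. Sequences of the X and Y copies are the same, so reads of the region cannot be divided between them, and the sources used here do not say how the authors counted the copies. The other 13 genes of the region in the list were all tested, and none passed without the block. With the block 3 rose, AKAP17A (log2 change 1.43, limma adjusted p = 0.0134), CD99 (1.38, 0.0347) and SHOX (1.19, 0.0141), and none fell. Of all genes tested, 8.25% rose and 7.71% fell with the block. At an unadjusted limma p under 0.05 without the block 4 of the 13 were higher and 0 lower, against 10.2% and 10.1% of all genes. Voom called 0 of the 13, against 2.31% of all genes higher and 1.15% lower. SLC25A6, the gene beyond IL3RA, had a change of -0.34, and CRLF2, on the far side of CSF2RA, one of 2.97, neither past the threshold (adjusted p = 0.71 and 0.174). The median over the 13 was 0.68.

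Genes with the most similar profiles were listed for each chain, by the root mean square difference of log2 CPM over the 6 libraries after each gene was centred on its mean. Nearest to IL3RA were IRF7, CLEC4C, SEL1L3, SERPINF1 and CCDC50, at 0.39 to 0.55. IRF7, an interferon regulatory factor, had 148, 51.7 and 139 CPM in LSC and 2.74, 3.73 and 4.54 CPM in bulk replicates 1, 2 and 3, low in LSC replicate 2 as IL3RA was. Of these 5 genes 4 are on the list of plasmacytoid dendritic cell markers, SEL1L3 being the exception. That list holds 22 of the 13755 genes tested. It was chosen with earlier results of these data known, and IL3RA was used by the gate, so the overlap is a description only. By the same measure CSF2RB was 270th nearest to IL3RA, at 1.76, and CSF2RA 1164th, at 2.32.

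CSF2RB had other neighbours. PIK3R5, a regulatory subunit of phosphoinositide 3-kinase gamma, was nearest at 0.15, with 68.1, 25.7 and 50.5 CPM in LSC and 10.3, 12.5 and 7.81 CPM in bulk replicates 1, 2 and 3. Like CSF2RB it was lowest in LSC replicate 2 within LSC and highest in bulk replicate 2 within bulk. C1orf186, SLC2A4RG, TMEM185A and INTS5, a subunit of the Integrator complex, followed at 0.15 to 0.25. Nearest to CSF2RA were MBOAT1, an acyltransferase, ACKR2, an atypical chemokine receptor, TPRG1L, SLC38A10 and ZNF865, at 0.12 to 0.16, with log2 changes of 0.95 to 1.32. None of the 10 nearest genes of CSF2RA and CSF2RB is on the plasmacytoid list. The measure does not scale the profiles, so near genes must share the size of change. The median log2 change of that list was 4.94, so its absence here is a description only.

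Markers of other cell types were set beside the receptor chains. Of 22 plasmacytoid dendritic cell markers 19 rose in LSC by limma unblocked and 21 when blocked, and none fell. Over all genes limma called 2.71% higher unblocked and 8.25% when blocked. At an unadjusted limma p under 0.05 there were 21 markers higher and 0 lower, against 10.2% and 10.1% of all genes. Voom called 17 markers higher and 0 lower, against 2.31% and 1.15% of all genes. The list was chosen with earlier results of these data known, so the marker counts are a description only. Their summed level was 5970, 3510 and 5445 CPM in LSC replicates 1, 2 and 3 and 194, 196 and 544 CPM in bulk. It was lowest within LSC in replicate 2, where IL3RA and CSF2RB were lowest, and highest within bulk in replicate 3, where IL3RA was highest but CSF2RB and CSF2RA were lowest. All 22 had reads in LSC, and SCT had none in bulk. The part of these cells in the IL3RA, CSF2RB and CSF2RA values was not tested.

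Basophils carry CD123 as well. Of 9 tested basophil and mast cell markers 1 rose, the chemokine receptor gene CCR3 (log2 change 4.98, limma adjusted p = 0.0214, on 9 bulk reads), and none fell without the block, while with it 2 rose and 2 fell. Over all genes limma called 2.71% higher and 1.33% lower without the block, and 8.25% and 7.71% with it. Unadjusted, 2 basophil markers were higher and 1 lower at a limma p under 0.05, against 10.2% and 10.1% of all genes. Voom, which called 2.31% of all genes higher and 1.15% lower, called 0 of these markers. The CCR3 call was also lost without LSC replicate 1 or 2 (adjusted p = 0.0868 and 0.0572) or without mouse 1 or 2 (0.165 and 0.14). Their sum was 84.7 to 193 CPM in LSC and 56.7 to 136 CPM in bulk, and all 9 had reads in both populations. The monocyte markers ran the other way, with 1 of 10 lower, VCAN (log2 change -2.62, adjusted p = 0.0435), 5 lower with the block and a sum of 1280 to 2856 CPM in LSC and 3654 to 5747 CPM in bulk. The VCAN call was lost in 10 alternatives, at -3.36 to -1.63 and adjusted p of up to 0.244 with libraries or mice left out. Unadjusted, 7 monocyte markers were lower and 0 higher, and voom called 1 lower and 0 higher. Within LSC the monocyte sum was highest in replicate 2, as were the basophil and mast cell, eosinophil, neutrophil, erythroid and T cell sums and CSF2RA. Of 10 neutrophil and granulocyte precursor genes none passed without the block and 6 were lower with it, at 86.0 to 1192 CPM summed in LSC and 164 to 3567 CPM in bulk. Unadjusted, 0 neutrophil genes were higher and 2 lower, and voom called 0, to be read beside the all-gene shares above. Of 7 erythroid genes 2 were lower, and 6 with the block, at 18.9 to 97.0 CPM summed in LSC and 115 to 410.4 CPM in bulk. Unadjusted, 5 erythroid genes were lower and 0 higher, and voom called 2 lower and 0 higher. Of 9 tested B cell and B precursor genes 2 were lower without the block, and 5 lower and 1 higher with it. At the unadjusted cut 7 of them were lower and 1 higher, and voom called 1 lower and 0 higher. Their sum was 168, 148 and 226 CPM in LSC replicates 1, 2 and 3 and 278, 204 and 1315 CPM in bulk, highest in bulk replicate 3, where CSF2RB and CSF2RA were lowest. The part of these cells in the receptor values was not tested.

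**Figure D4:**
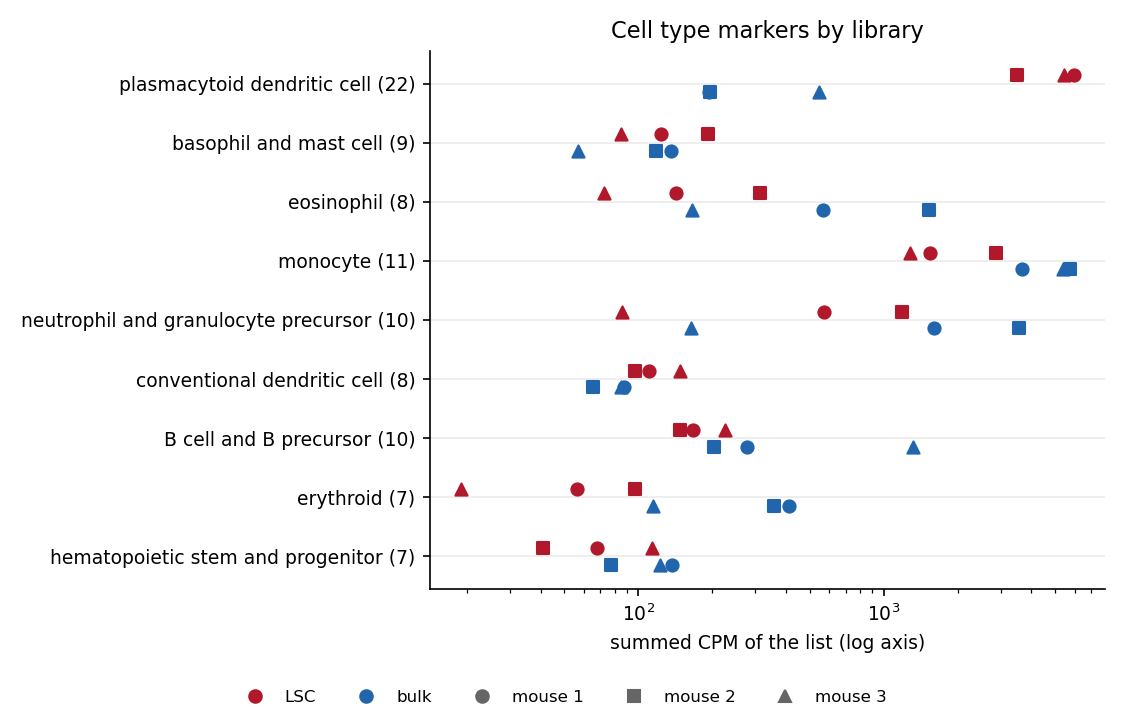
Summed CPM (horizontal log axis) of 9 cell type marker lists in each library, with the number of listed genes found in brackets. Red symbols are LSC, blue symbols bulk, and shapes mark mice. The plasmacytoid dendritic cell sum is at 3510 to 5970 CPM in LSC and 194 to 544 CPM in bulk, and the monocyte sum is lower in every LSC library.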

How the data were processed

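RNA of 6 sorted samples was amplified before sequencing, per the labels' protocols, and RSEM, Bowtie2, edgeR and hg19 are named, without version or role, in the submitters' processing notes. The authors' deposited table holds log2 CPM per gene and library, and, per the file headers, the authors' log2 fold change, a likelihood ratio score, a p-value and a false discovery rate. Labels give the organism as mouse, which is the host, although the symbols are human.

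All 6 columns share a floor of 0.0197 CPM. Above it values rise in whole reads (within 0.1 for 100% of low values), so reads are recovered estimates. Amplified reads are not independent molecules, so intervals cover counting error only. No count distribution was fitted, and voom used the recovered reads as an alternative only.

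Tested were the 13755 of 13892 genes that reached 1 CPM in 3 or more libraries. The comparison of LSC with bulk used limma 3.58.1 under R 4.3.3 (lmFit, then eBayes with a trend, two-sided) and took the log2 values as deposited, with Benjamini-Hochberg adjustment over all genes tested and a threshold of 0.05. The same number marks the same mouse, and libraries of mice 1, 2 and 3 deviated together from their group means (correlation over genes 0.33, 0.35 and 0.30), so the number pairs the samples. The fit with the mouse as a block is given where it changes a call. The fitting code was tested on simulated data.

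The receptor chains and gene lists were chosen with earlier results of these data known. Genes named are the 3 chains, IL5RA, list members past the threshold with or without the block, and the 5 nearest profiles per chain; any further names were picked with values in view. Alternatives were pseudocounts of 1 and 5 CPM, other filters and scalings, eBayes without trend, array weights, voom on recovered reads, the mouse as a block, and leaving out each library or mouse. Voom with the block was added after seeing the data. The 21 symbols that had turned into dates could not be matched. No sequence or coordinate is printed, since the reference used here is of mouse.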

Additional observations from a re-analysis of the deposited data

How the results depend on the processing

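The direction of IL3RA, CSF2RB, CSF2RA and the 3 ratios was kept in all alternatives run for them. For IL3RA and the ratios over IL3RA that direction describes the sort. IL3RA had a log2 change of 3.87 with a pseudocount of 5 CPM and 5.16 to 6.15 with libraries or mice left out. CSF2RB lost its call with eBayes without trend (2.21, adjusted p = 0.0583) and ran from 1.92 to 2.71 with libraries or mice left out. CSF2RA, at 0.91 to 1.42 in those, passed only with the replicate block (1.19, adjusted p = 0.0133) and with voom and the block (1.20, adjusted p = 0.00785). The ratio differences ran from -3.78 to -3.15, 0.64 to 1.40 and -5.02 to -3.83 for CSF2RB over IL3RA, CSF2RB over CSF2RA and CSF2RA over IL3RA with libraries or mice left out. An exact sign-flip permutation test of CSF2RB over CSF2RA that keeps the mouse pairing (replicate block) gave p = 0.25, the smallest it can give. PIK3CD, SH2B3, MYC, CDK6 and VCAN also lost their calls with eBayes without trend (adjusted p = 0.0798, 0.0621, 0.077, 0.0539 and 0.12), VCAN with quantile normalization (0.0544) and CCR3 with voom (0.0502). IRS2, at -2.84, was -1.85 and -1.03 with pseudocounts of 1 and 5 CPM.

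Genes called over the whole table were 373 higher and 183 lower in LSC. With the replicate block they were 1135 and 1060, which include all 373 and all 183, and with voom and the block 1216 and 1217. Without trend they were 197 and 54. Lower genes numbered 302 and 280 with pseudocounts of 1 and 5 CPM and 282 with array weights. With libraries or mice left out, 37 to 346 were higher and 0 to 169 lower, with 0 lower without mouse 1. The cause of these shifts was not tested, apart from the fewer samples where libraries were left out. No scaling moved the median of all genes by over 0.1. Depth limits the order of the bulk IL3RA levels, which rest on 9 to 37 reads.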

Other observations

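Receptors of the other myeloid growth factors were examined in the marker lists. CSF1R, the receptor of macrophage colony-stimulating factor, had mean levels of 6.04 CPM for LSC and 13.6 CPM for bulk. Its log2 change of -1.32 passed with the mouse as a block (limma adjusted p = 0.0418) and not without it (0.234). KIT, the stem cell factor receptor, had 7.33 CPM for LSC and 31.9 CPM for bulk on average, and changed by -2.42 on the log2 scale (limma adjusted p = 0.00806 with the block, 0.0691 without it, and 0.0397 without it at a pseudocount of 1 CPM). FLT3, the receptor of FLT3 ligand, averaged 51.7 CPM in LSC and 30.8 CPM in bulk and did not pass either way (log2 change 0.47, adjusted p = 0.647, 0.382 with the block). In mouse 2 its change was -0.31, against 0.21 and 1.52 in mice 1 and 3. These receptors use a kinase domain of their own and no beta chain.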
